A study of Mus musculus with 12 samples.

Results

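HP4, a mouse embryonic stem (ES) cell line in which both alleles of Rex1 are disrupted, was compared with the wild-type ES cell line EB5 across the genes of an oligonucleotide array. The comparison takes the 3 arrays whose titles name HP4 (Rex1-/-) and the 3 whose titles name EB5, which are 6 of the 12 samples of the series, and all gene probes of the array, 20280 in number. In the disrupted allele 100 bp at the beginning of the coding sequence, in exon 4 and with the start codon, are missing, and it carries in their place a cassette that joins a puromycin resistance gene to EGFP. RKPG9, a Rex1+/- line, carries this allele once, and HP4 and HP3 carry no wild-type allele. Rex1-/- lines were made in the study from RKPG9 in high-dose puromycin, which selects cells that copied the disrupted allele onto the other chromosome, and also with a second vector, and the sources used here do not say which of these ways gave HP4 and HP3. HP4 is 1 line that carries the cassette and descends from drug-selected cells, so the loss of Rex1 and the history of the clone cannot be told apart in this comparison. All lines were grown in serum medium with LIF and without feeder cells. On every array the RNA of the line carried the dye Cy3 and a pool of RNA from mouse cell lines carried Cy5, so a level below is the log2 ratio of the line to this pool, and a difference is HP4 minus EB5 on the same scale. Nothing in the labels says if the 3 arrays of each line hold RNA of separate cultures, and every p-value then speaks only of the spread between these arrays, possibly a technical one.

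Rex1, encoded by Zfp42, is a zinc-finger protein of the undifferentiated ES cell and the early embryo, long used as a marker of pluripotency because its RNA disappears when ES cells differentiate. It descends from the gene of YY1, a widely expressed zinc-finger protein that can activate or repress its targets and that is linked to polycomb complexes, the chromatin regulators that keep developmental genes silent. A difference between HP4 and EB5 was asked of the factors that maintain pluripotency and of epithelial, cytoskeletal and germ line genes. The lists of these genes were written with earlier results of these data known.

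The EB5 arrays were read by the image software in a session of their own with other settings, so line and session cannot be told apart in any value against EB5. The arrays of HP4, HP3 and RKPG9 were read in 1 session, and values against those lines stand beside the main ones below. HP4 arrays were dimmer than EB5 arrays. Their median Cy3 signal above background was 86.46 to 90.48 against 145.6 to 178.4 for EB5, with 0 saturated Cy3 spots on each HP4 array and 21 to 29 on each EB5 array. Their Cy3 signal was well above background for 85.3 to 86.08% of probes against 92.24 to 94.45%. The part of brightness in the differences was not tested. Of the 8 ES cell markers listed, 6 were measured and were above background on all arrays of both lines. Of other cell types, 3 of 8 fibroblast markers were measured, with a summed Cy3 signal of 335 in EB5 and 191 in HP4, 4 of 5 of trophoblast (916 and 386), 7 of 7 of primitive endoderm (667 and 432), 2 of 4 of neural cells (284 and 169) and 2 of 3 of mesoderm (730 and 187), and for the ES cell markers this sum was 21244 and 7712. Zfp42 alone gave 13953 and 3519 of the sums of the ES cell markers. Sums of different probes are not compared between lists. No measured marker of another type had a Cy3 signal of 0. Eomes was above background on 2 EB5 arrays and 0 HP4 arrays, Gata4 on 3 and 0, and Ttr on 2 and 1. The other measured markers of these types were above background on all arrays of both lines. The part of these cell types in the differences was not tested. Zfp42 itself read 5.96, 5.98 and 5.99 in EB5 and 5.66, 5.42 and 5.24 in HP4 at the first of its probes, and 5.89, 5.87 and 5.95 against 5.52, 5.40 and 5.22 at the other. Both probes were lower in HP4 on every array, with differences of -0.53 and -0.52 (adjusted p = 0.00049 and 0.00029, limma). The median difference was -0.3 over the 21 probes with an EB5 level over 4. Of these probes, 52.4% were lower in HP4 at an adjusted p below 0.05. The part of the level in the differences was not tested. The disrupted allele still gives a transcript that joins truncated Rex1 to the cassette, and where the probes lie relative to the replaced bases is not known here, so the level of Zfp42 does not check the genotype.

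The RNA of HP4 differed from that of EB5 mainly by genes that were lower in HP4. With limma over all 12 arrays, 20241 probes could be tested, and a probe was called where its Benjamini-Hochberg adjusted p was below 0.05 and the lines differed by over 2-fold. By this rule 58 probes were lower in HP4 (0.287% of those tested) and 1 was higher (0.00494%). The arrays of HP4 and EB5 did not overlap for any of these 59 probes, and they did not overlap for 53.5% of all probes either. Of the 59, 41 had a gene name and 39 names were distinct. Most falls were modest: 54 probes were lower by 1 to 2 on the log2 scale and 4 by over 2. At the adjusted p alone and with 1 probe per gene, 2688 of 7127 genes were lower (37.7%) and 1190 were higher (16.7%), with a median difference of -0.06 over all genes, so that small shifts passed the test for many genes and a share of members is read against these percentages. The count past both thresholds and its split depended on the processing. It was 193 higher and 461 lower with an offset of 0 in the background correction, 443 and 1009 with signals processed by the image software, 655 and 816 with the authors' table, and 7 and 19 without background subtraction.

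**Figure D1:**
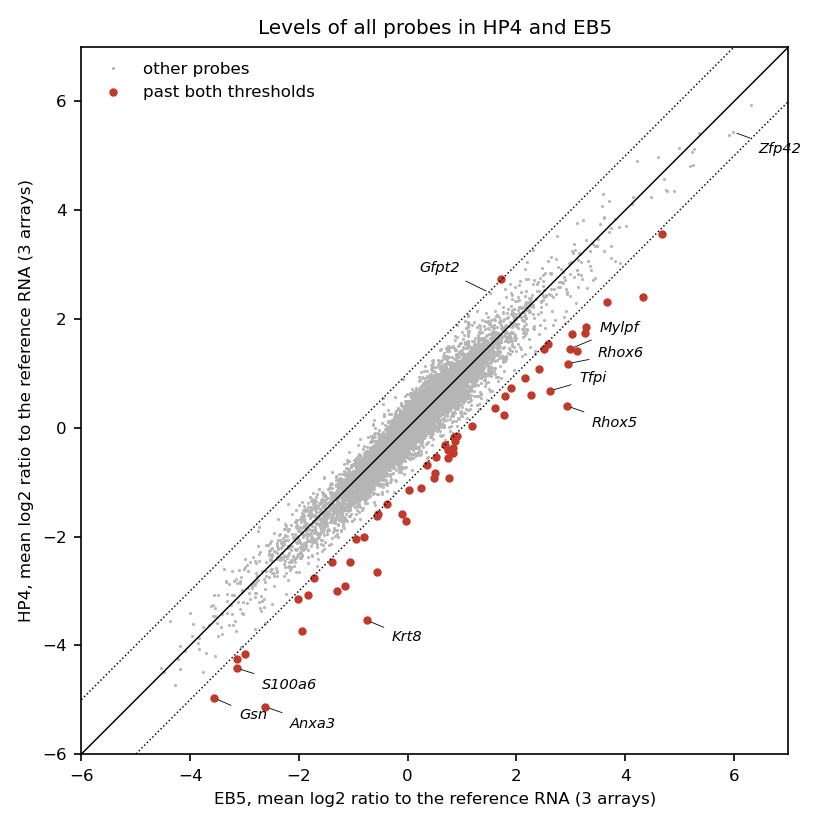
Mean log2 ratio to the reference RNA in HP4 (vertical axis) against EB5 (horizontal axis), 1 point per probe, with probes past both thresholds in red, the diagonal as a solid line, 2-fold differences as dotted lines and a few genes labelled. The 58 lower probes lie under the diagonal over most of the range of levels, from Gsn near -3.6 in EB5 to Dppa3 near 4.7, and the 1 higher probe lies above it.

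Of the named genes, Krt8 had the largest fall, and Krt18, its partner in simple epithelia, came after Rhox5 and Anxa3. Krt8 and Krt18 encode the type II and the type I keratin that together build the intermediate filaments of the first epithelia of the embryo. They are neighbours on mouse chromosome 15 with 0 protein-coding genes between them in the RefSeq order of GRCm38.p6. Their promoter windows, 250 bases before to 50 after the start of the gene, are shown for this pair, for Rhox5, which had the largest fall after Krt8, and for Acta1, a contractile gene whose window holds a longer form of the motif. The capitals mark GCCAT or its reverse complement ATGGC, the core of the motif that YY1 binds, searched on both strands. The sequences are those of RefSeq on GRCm38.p6, read in the direction of the gene.
Krt8, chr15:102004293-102004592, minus strand: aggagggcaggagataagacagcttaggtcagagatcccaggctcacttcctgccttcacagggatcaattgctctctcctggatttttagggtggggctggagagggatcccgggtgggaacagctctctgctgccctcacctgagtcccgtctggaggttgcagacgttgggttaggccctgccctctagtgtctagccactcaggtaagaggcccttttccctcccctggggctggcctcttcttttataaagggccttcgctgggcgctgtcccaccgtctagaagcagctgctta
Krt18, chr15:102027966-102028265, plus strand: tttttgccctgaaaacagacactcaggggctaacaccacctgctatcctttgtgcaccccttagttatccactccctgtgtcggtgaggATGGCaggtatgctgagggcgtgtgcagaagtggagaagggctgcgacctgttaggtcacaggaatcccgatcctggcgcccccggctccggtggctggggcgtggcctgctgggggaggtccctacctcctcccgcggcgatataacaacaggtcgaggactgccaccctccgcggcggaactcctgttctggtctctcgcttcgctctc
Acta1, chr8:123894726-123895025, minus strand: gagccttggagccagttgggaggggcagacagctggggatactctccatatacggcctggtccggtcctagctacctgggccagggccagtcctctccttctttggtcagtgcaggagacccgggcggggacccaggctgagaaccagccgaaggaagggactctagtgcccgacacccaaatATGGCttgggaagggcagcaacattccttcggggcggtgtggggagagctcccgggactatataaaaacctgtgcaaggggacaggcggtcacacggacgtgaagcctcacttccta
Rhox5, chrX:37754358-37754657, plus strand: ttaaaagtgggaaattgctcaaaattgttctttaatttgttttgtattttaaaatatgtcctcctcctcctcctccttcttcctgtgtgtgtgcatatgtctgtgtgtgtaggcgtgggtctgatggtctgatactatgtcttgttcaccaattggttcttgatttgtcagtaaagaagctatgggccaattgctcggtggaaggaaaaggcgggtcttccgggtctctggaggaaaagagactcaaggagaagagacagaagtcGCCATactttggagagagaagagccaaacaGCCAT
The Krt8 window held 0 matches to GCCAT, those of Krt18 and Acta1 held 1 each and that of Rhox5 held 2. The windows of Cald1, whose fall was larger than that of Acta1, held 0. In Acta1 the match also fits the longer form GCCATNTT, in which the shorter one is contained. Among the genes lower past both thresholds, 26 had a promoter in the table and 12 of them held GCCAT (46.2%), beside 2340 of 5379 measured genes (43.5%) and 11939 of 27025 genes of the table (44.2%). The longer form was in 2 of the 26 (7.69%), Acta1 and Anapc10, beside 10.2% of the measured genes and 6.96% of the table.

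Krt8 read -0.74 and -0.76 on the 2 EB5 arrays with a usable spot and -3.46, -3.59 and -3.55 in HP4, a fall of 2.79 on the log2 scale or 6.90-fold (SE 0.05, adjusted p = 1.3e-10). Krt18 read -0.58, -0.48 and -0.62 in EB5 and -2.68, -2.57 and -2.72 in HP4, and fell by 2.10 or 4.29-fold (SE 0.06, adjusted p = 1.3e-09). Its second probe fell by 1.67 (adjusted p = 4.8e-07). Both keratins thus stood a little under the reference pool in EB5 and far under it in HP4, with a gap between the lines far wider than the spread within each. Against the Rex1+/- line of the same session, Krt8 differed by -0.12 (adjusted p = 0.051) and Krt18 was higher in HP4 by 0.42 (adjusted p = 0.00018). Against HP3 both were higher in HP4, by 0.34 and 0.50.

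Krt7, a partner of Krt18 in ducts and trophoblast, read -0.33, -0.41 and -0.40 in EB5 and -1.32, -1.36 and -1.50 in HP4, a fall of 1.01. Krt19, a further type I keratin, fell by 1.48 at 1 probe, where HP4 was not well above background on any array and the fall is at least 2.02-fold, but its brighter probe differed by 0.06 (adjusted p = 0.47) and a further probe by 0.00. The Krt19 result thus holds for 1 of its 3 probes. Tfap2c, a transcription factor of trophoblast and germ cells, fell by 0.80, and so did Bmp4, a signal of the BMP family, by 0.66, while Ets2, which is needed in trophoblast, rose by 0.68 (its second probe differed by 0.11, adjusted p = 0.25). Of 16 measured genes of the list of keratins and trophoblast factors, 9 fell, 3 of them more than 2-fold, 1 rose and 6 did not pass the test, with a median of -0.19. Eomes differed by 0.06 and Hand1 by 0.12, neither past the test. In HP4 against RKPG9, 5 members of the list were higher and 3 lower, with a median of -0.00.

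Genes of cell junctions were lower as well. Dsp, the desmosome protein that anchors keratin filaments, read 1.27, 1.29 and 1.36 in EB5 and 0.32, 0.38 and 0.36 in HP4, a fall of 0.96 that is just under 2-fold. Perp, a desmosome component and p53 target, read 0.50, 0.52 and 0.57 in EB5 and -0.54, -0.54 and -0.56 in HP4, a fall of 1.07 (adjusted p = 2e-09). Cldn4, a claudin of tight junctions, fell by 0.69. No array of HP4 reached an EB5 array for these 3 genes. The arrays of the 2 lines did not overlap for 53.5% of all probes. Cdh3, P-cadherin, went the other way and rose by 0.61. Of 25 measured junction and adhesion genes, 15 fell and 3 rose, with a median of -0.17, while 7 did not pass. Against RKPG9, Perp and Cldn4 were also lower in HP4, by 0.60 and 0.95, whereas Dsp was higher by 0.18 (adjusted p = 0.0032). Over the list 9 members were higher than in RKPG9 and 8 lower, with a median of 0.08, and 5 were higher than in HP3 and 7 lower, with a median of -0.01.

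**Figure D2:**
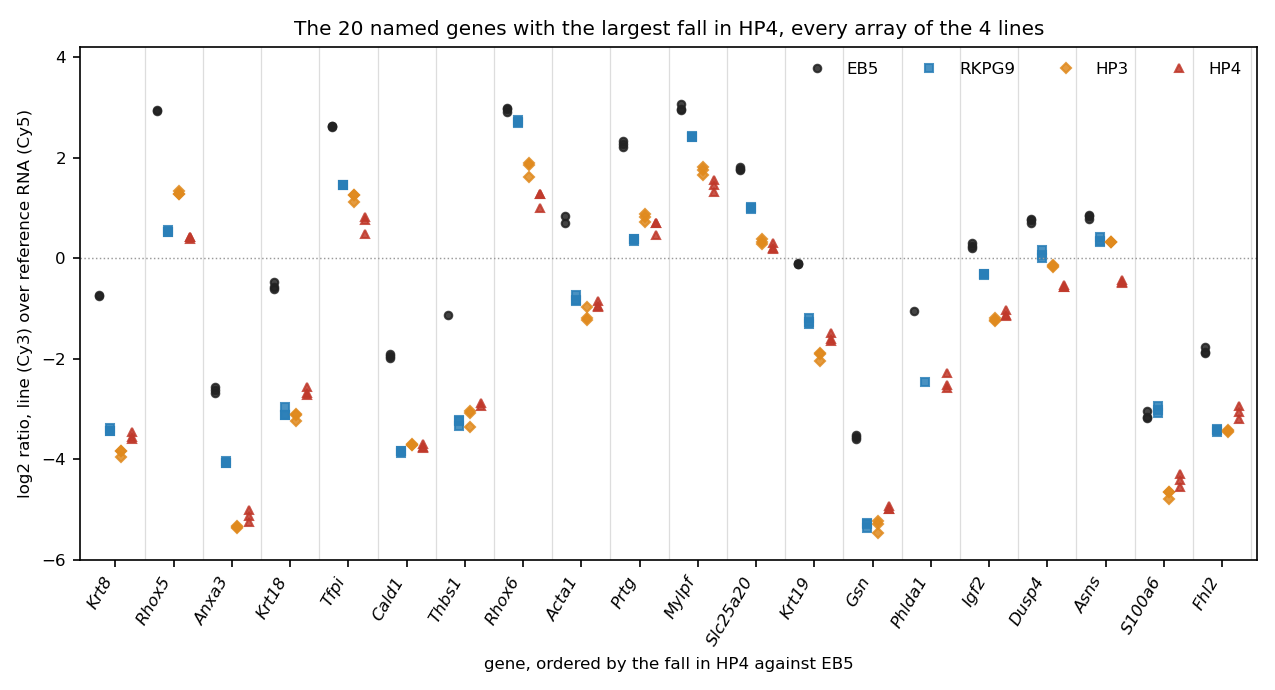
Log2 ratio to the reference RNA on each array for the genes with the largest falls from EB5 to HP4, 1 point per usable array, with the 4 lines in their own colours. For each gene the HP4 points lie below all EB5 points, which the choice of genes required. For Krt8, Cald1 and Acta1 the RKPG9 and HP3 points lie near those of HP4.

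Genes of the contractile cytoskeleton formed the list with the largest share of members lower. Cald1, caldesmon, which binds actin and tropomyosin, read -1.98, -1.90 and -1.94 in EB5 and -3.69, -3.75 and -3.78 in HP4, a fall of 1.80 or 3.47-fold (SE 0.03, adjusted p = 5.6e-11). A second probe fell by 1.70, while a dimmer one differed by 0.23 in the other direction (adjusted p = 0.046). Acta1, skeletal muscle actin, read 0.69 and 0.84 on the usable EB5 arrays and -0.85, -0.96 and -0.98 in HP4, a fall of 1.70. The EB5 arrays of both genes lay far above those of HP4. Mylpf, a regulatory light chain of fast muscle myosin, read 3.06, 2.97 and 2.95 in EB5 and 1.32, 1.46 and 1.56 in HP4, a fall of 1.55 (adjusted p = 1.2e-08). Mylpf thus remained above the reference pool in HP4, at a lower level. Gsn, gelsolin, which severs actin filaments, read -3.56, -3.52 and -3.60 against -4.94, -4.99 and -4.99 and fell by 1.41. Fhl2, a LIM-domain protein of muscle and adhesion sites, fell by 1.23. Without background subtraction Fhl2 changed by -0.13, no longer past the test.

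Of 26 measured genes of this list, 22 fell, 5 of them more than 2-fold, 1 rose and 3 did not pass, with a median of -0.41 beside -0.06 for all genes. The same list against RKPG9 had 12 members higher in HP4 and 5 lower, with a median of 0.11, and against HP3 9 higher and 6 lower, with a median of 0.01. Of the genes above, Mylpf was lower than in both lines, by 0.97 (adjusted p = 2.7e-07) against RKPG9 and by 0.30 (adjusted p = 0.0035) against HP3. Acta1 differed by -0.12 from RKPG9 (adjusted p = 0.22) and by 0.21 from HP3 (adjusted p = 0.054). Gsn was higher in HP4 than in either line, by 0.34 and 0.36, and Fhl2 by 0.35 and 0.36. Over all probes with an EB5 level of -4 to -2, where Gsn lay, the median against RKPG9 was 0.41. It was 0.01 for levels of -2 to 0, where Fhl2 lay. Most of the list thus stood low in HP4 against EB5 and not against the lines read in the same session.

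Calcium-binding proteins of the annexin and S100 families had the lowest median of the lists. Anxa3, an annexin of membranes, read -2.68, -2.57 and -2.62 in EB5 and -5.02, -5.25 and -5.14 in HP4, a fall of 2.51 or 5.70-fold (SE 0.05, adjusted p = 1.1e-10). S100a6, calcyclin, read -3.18, -3.05 and -3.17 in EB5 and -4.56, -4.29 and -4.42 in HP4 and fell by 1.28, with its reference spot saturated on all arrays. Both genes stood far under the reference pool in EB5 and lower still in HP4. Anxa1, annexin A1, fell by 1.18, S100a13 by 1.10 and Anxa5, which binds exposed phosphatidylserine, by 0.75. Anxa1 changed by -0.17 without background subtraction, no longer past the test. S100a6 and S100a13 lie on chromosome 3 with 6 protein-coding genes between them. Of 15 measured members 10 fell, 4 of them more than 2-fold, 1 rose and 4 did not pass, with a median of -0.58. Lgals1, galectin-1, a secreted lectin, read -3.19, -3.04 and -3.21 in EB5 and -4.25, -4.18 and -4.31 in HP4 and fell by 1.10, with the reference spot saturated on 2 of the HP4 arrays.

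Against RKPG9 the members of the family parted. Anxa3 and S100a6 were lower in HP4 by 1.07 (adjusted p = 5.8e-08) and 1.40 (adjusted p = 6.2e-08), and S100a13 by 0.59, whereas Anxa1 was higher by 0.69 (adjusted p = 7.7e-05) and Anxa5 by 0.32. Over the list, 5 members were higher and 5 lower than in RKPG9, with a median of -0.05. Over all probes with an EB5 level of -4 to -2, where Anxa3, S100a6 and Anxa1 lay, the median against RKPG9 was 0.41. Against HP3, Anxa3, S100a6, Anxa1 and Anxa5 were higher in HP4, by 0.21, 0.28, 0.55 and 0.30, and S100a13 was lower by 0.34 (adjusted p = 0.0049). The values of S100a6 against both lines rest on the Cy3 channel, since its reference spot was saturated on all arrays.

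The X-linked Rhox homeobox genes, expressed in the placenta and the reproductive tract, were the largest falls among genes of the germ line list. Rhox5 read 2.94 and 2.92 on the usable EB5 arrays and 0.42, 0.38 and 0.41 in HP4, a fall of 2.53 or 5.76-fold (SE 0.04, adjusted p = 5.6e-11). Rhox6, its direct neighbour on the X chromosome with 0 protein-coding genes between them, read 2.99, 2.90 and 2.97 in EB5 and 0.99, 1.28 and 1.27 in HP4 and fell by 1.77 (SE 0.08, adjusted p = 5.3e-08). Both were several-fold above the reference pool in EB5 and nearer to it in HP4. Rhox4b, of the same cluster, differed by -0.08 and did not pass. The 2 genes differed in how HP4 stood against RKPG9 and HP3. Rhox5 was lower than in RKPG9 by 0.12 (adjusted p = 0.013) and Rhox6 by 1.54 (adjusted p = 8.2e-08), while against HP3 the order was the reverse, with 0.89 for Rhox5 and 0.61 for Rhox6.

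Dppa3, Stella, a maternal and germ cell factor that guards DNA methylation in the zygote, read 4.61, 4.73 and 4.69 in EB5 and 3.24, 3.81 and 3.65 in HP4 and fell by 1.11 (SE 0.14, adjusted p = 9.3e-05). It was also lower than in RKPG9, by 0.85, and than in HP3, by 0.56. Its HP4 arrays were spread from 3.24 to 3.81, and still under every EB5 array. The arrays of the 2 lines did not overlap for 53.5% of all probes. Over the probes with an EB5 level over 4, where Dppa3 lay, the median difference from EB5 was -0.3. Kit, the receptor of stem cell factor on germ and blood cells, fell by 0.80 and Stag3, a cohesin subunit of meiosis, by 0.53. Of 18 measured genes of the list 8 fell, 2 of them more than 2-fold, 0 rose and 10 did not pass, with a median of -0.12. Sycp3, of the synaptonemal complex of meiotic chromosomes, read 2.35, 2.23 and 2.38 in EB5 and 1.67, 2.16 and 2.25 in HP4, and the difference of -0.30 did not pass (adjusted p = 0.11). Its reference spot was well above background on all EB5 arrays and on 0 of the 3 HP4 arrays, so its log2 ratio in HP4 is uncertain.

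Tfpi, Thbs1 and Prtg were also among the largest falls. Tfpi, the inhibitor of tissue factor that restrains coagulation, read 2.61, 2.62 and 2.62 in EB5 and 0.47, 0.76 and 0.82 in HP4, a fall of 1.93 or 3.82-fold (adjusted p = 1.2e-08). Its other probes gave smaller values of -0.06, -0.44 and -0.68, the first of them not past the test. Thbs1, thrombospondin, an adhesive glycoprotein, read -1.14 on the 1 usable EB5 array and -2.94 and -2.88 on the usable HP4 arrays, a fall of 1.77 that rests on few spots, and its dimmer probe fell by only 0.12. Prtg, protogenin, a receptor of the immunoglobulin family in the early neural tube, read 2.21, 2.32 and 2.28 in EB5 and 0.46, 0.69 and 0.69 in HP4, a fall of 1.66. Its second probe fell by 0.77. For these genes the size of the fall depended on the probe, and its direction was the same at each probe that passed.

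Igf2, the imprinted fetal growth factor, read 0.31, 0.20 and 0.24 in EB5 and -1.04, -1.15 and -1.14 in HP4. It was not well above background in HP4, so the fall is at least 2.15-fold, and its other probe, above background on all arrays of both lines, differed by 0.11 (adjusted p = 0.21). Igfbp3, which binds insulin-like growth factors in serum, fell by 1.20. Dusp4 and Dusp6, phosphatases that switch off MAP kinases, fell by 1.30 and 0.53. Dusp4 read 0.77, 0.70 and 0.75 in EB5 and -0.54, -0.57 and -0.57 in HP4, and was lower than in RKPG9 by 0.63 and than in HP3 by 0.39. Phlda1, an early response gene, fell by 1.41, with 1 usable EB5 spot. Of 27 measured genes of FGF, TGF-beta and Wnt signalling 9 fell and 7 rose, with a median of 0.01. Members of that list thus changed in both directions, as did all genes, of which 37.7% fell and 16.7% rose. Sparc, a matrix protein of parietal endoderm, fell by 0.83 and Serpinh1, the collagen chaperone, by 0.54, and of 35 matrix and mesenchymal genes 14 were lower past the test, 8 higher and 13 neither (median -0.09). Against RKPG9, 17 members of the matrix list were higher in HP4 and 4 lower, with a median of 0.22. Against HP3 19 were higher and 2 lower, with a median of 0.20. The difference from RKPG9 depended on the level over all probes. Its median was 0.41 for the 245 probes with an EB5 level of -4 to -2 and 0.01 for levels of -2 to 0. The part of the level in the value of the list was not tested.

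Metabolic genes were lower in part. Slc25a20, the carrier that brings acylcarnitines into mitochondria, read 1.81, 1.75 and 1.77 in EB5 and 0.31, 0.18 and 0.21 in HP4 and fell by 1.54 (adjusted p = 6.4e-10). Arih2, a ubiquitin ligase, is its direct neighbour on chromosome 9 and fell by 1.07. Asns, asparagine synthetase, a target of the amino acid response, read 0.86, 0.83 and 0.78 in EB5 and -0.43, -0.49 and -0.48 in HP4 and fell by 1.29 (adjusted p = 8.4e-10). It was lower than in RKPG9 by 0.83 and than in HP3 by 0.79, so that HP4 had the lowest level of the 4 lines. Atf4, the transcription factor of that response, fell by 0.33. Of 47 measured genes of the mitochondrial respiratory chain 33 fell, none of them 2-fold, 2 rose and 12 did not pass, with a median of -0.20 beside -0.06 for all genes. Ndufs4, of complex I, fell by 0.63 and Ndufv3, of the same complex, by 0.40. Against RKPG9, 19 members were lower and 8 higher, with a median of -0.07. Of 18 glutathione and redox genes 9 fell and 3 rose, with Gss, glutathione synthetase, and Sod2, the mitochondrial superoxide dismutase, lower by 0.42 and 0.40, and Mgst1, a glutathione transferase of membranes, higher by 0.60.

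Rises were smaller than falls in the main processing. The 1 probe past both thresholds had no gene name here. It read 1.76, 1.38 and 1.98 in EB5 and 2.83, 2.65 and 2.72 in HP4, a rise of 1.03 (adjusted p = 8e-05), and differed from RKPG9 by 0.09 and from HP3 by 0.27. It was not past both thresholds with Cy3 alone, with median centring, without background subtraction, without EB5 replicate 2 or without HP4 replicate 1. Among named genes that passed the adjusted p with no overlap, the file's gene onzin read -0.56, -0.43 and -0.36 in EB5 and 0.39, 0.59 and 0.63 in HP4 and rose by 0.99. Gfpt2, an entry enzyme of hexosamine synthesis, read 1.55, 1.43 and 1.54 in EB5 and 2.23, 2.60 and 2.60 in HP4 and rose by 0.97. Rbpms2, an RNA-binding protein of smooth muscle precursors, rose by 0.96 and Hop, named so in the files, by 0.90. These genes came close to 2-fold without reaching it in the main processing. Over all settings the difference ran from 0.46 to 1.21 for onzin and from 0.25 to 1.55 for Gfpt2. It ran from 0.36 to 1.08 for Rbpms2 and from 0.35 to 1.16 for Hop, so each passed 2-fold in some setting. Osf2, Pias2 and MGC7221 were also in the 10 largest rises. Osf2 was not well above background in either line, and the other probes of Pias2 differed by -0.02 and 0.17.

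Imprinted genes were among the rises and among the falls. Mest, of the paternally expressed class, read 1.24, 1.15 and 1.43 in EB5 and 2.18, 2.15 and 2.09 in HP4, a rise of 0.87 (adjusted p = 8.9e-07). Meg3, a maternally expressed long non-coding RNA, read 2.18, 2.17 and 2.21 in EB5 and 3.12, 3.13 and 2.89 in HP4, a rise of 0.86. Of its other probes 1 rose by 0.77 and 2 differed by -0.06 and -0.01. Of 19 imprinted genes 10 fell and 3 rose, with a median of -0.12, while 6 did not pass. Of all genes 37.7% fell and 16.7% rose, with a median of -0.06. Sgce, epsilon-sarcoglycan, also paternally expressed, fell by 0.60. Mest was lower in HP4 than in RKPG9, by 0.41, and Meg3 was higher, by 0.62.

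The hedgehog target genes Gli and Ptch1 were higher than in EB5, Ptch1 not in every scaling, and lower than in the Rex1+/- line RKPG9. Gli, as the files name the transcription factor of the pathway, read 2.22, 2.13 and 2.15 in EB5 and 2.78, 3.03 and 2.95 in HP4, a rise of 0.76 (adjusted p = 3.7e-06). Ptch1, the receptor that the pathway induces, read 1.76, 1.75 and 1.77 in EB5 and 2.09, 2.18 and 2.07 in HP4, a rise of 0.36, which was -0.06 with median centring and -0.00 without background subtraction. Against RKPG9 Gli was lower in HP4 by 1.07 and Ptch1 by 1.25. Of 11 measured genes of the pathway 2 rose, 3 fell and 6 did not pass. Egr1, an immediate early transcription factor, rose by 0.81 and was higher than in RKPG9 by 1.10. Otx2, a homeobox factor of the epiblast and the forebrain, rose by 0.60, and Id2, an inhibitor of basic helix-loop-helix factors, by 0.49, though Id2 read -0.13 with median centring.

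The factors that define the pluripotent state were compared next. Pou5f1, which encodes Oct3/4, read 4.12 on the 1 usable EB5 array and 4.19, 4.18 and 3.99 in HP4, a difference of 0.00. Nanog read 2.26, 2.00 and 1.97 in EB5 and 2.28, 2.16 and 2.15 in HP4, a difference of 0.12 (adjusted p = 0.19). The arrays of the 2 lines overlapped for Pou5f1, Nanog, Dppa5a and Fgf4, of which the last 2 differed by -0.15 and -0.04, and none of the 4 passed. The difference of Pou5f1 rests on 1 EB5 spot and ran from -0.56 with median centring to 0.70 with Cy3 alone, and that of Nanog was -0.36 with median centring. Klf4, a Kruppel-like factor of naive ES cells, read 0.96, 1.02 and 1.04 in EB5 and 0.32, 0.42 and 0.39 in HP4 and fell by 0.63 (adjusted p = 1.1e-06). Sox15, a relative of Sox2, fell by 0.57 and Fbxo15, an F-box target of Oct3/4, by 0.37. Of 25 measured pluripotency genes 9 fell and 6 rose, with a median of -0.05, while 10 did not pass. Only Dppa3 fell more than 2-fold. Against RKPG9 15 members were lower and 3 higher, with a median of -0.31. Against HP3 15 were lower and 0 higher, with a median of -0.27. Over all probes the median against RKPG9 was -0.33 for EB5 levels over 4, where Pou5f1 lay. It was -0.15 for levels of 2 to 4 and -0.0 for 0 to 2, where Klf4 lay. The part of the level in the medians of this list was not tested.

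Genes of the extraembryonic endoderm changed in both directions. Sparc, described above, had the largest fall of this list, at 0.83. Gata4, Ttr and Dab2, a transcription factor, a transport protein and an adaptor of that lineage, differed by -0.03, -0.03 and -0.02, none past the test and with overlapping arrays, and Gata4 was above background on no HP4 array. Gata6 rose by 0.44 and Sox7 by 0.22, both transcription factors of primitive endoderm, whereas Afp, the fetal albumin-like protein, fell by 0.17 and Plat, tissue plasminogen activator, by 0.25. Gata4, Ttr and Afp changed sign with median centring and Dab2 without background subtraction, and a second Plat probe rose by 0.35. Of 17 genes of the list 5 fell, 3 rose and 9 did not pass, with a median of -0.03. Of all genes 37.7% fell and 16.7% rose, with a median of -0.06. Of the 15 measured genes that the study assayed by quantitative PCR, the falls of Mylpf, Lgals1 and Sparc were the largest, at 1.55, 1.10 and 0.83, and Dusp14 fell by 0.43. Gapdh, the reference of that assay, differed by -0.03 (adjusted p = 0.76).

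YY1 and the polycomb proteins were measured as the relatives and partners of Rex1. Yy1 read 0.13, 0.18 and 0.15 in EB5 and 0.10, 0.12 and 0.11 in HP4, a difference of -0.04 (adjusted p = 0.26). A second Yy1 probe differed by 0.14 in the other direction (adjusted p = 0.074). Of the core of the polycomb repressive complex that methylates histone H3, Eed fell by 0.21 while Suz12 differed by -0.06 and did not pass, and a second Suz12 probe fell by 0.30. Aebp2, a cofactor of this complex, fell by 0.41, and Phc1, of the other polycomb complex, rose by 0.39, or read -0.32 with median centring. Of 26 genes 10 fell and 5 rose, 11 did not pass, and the median of -0.06 was that of all genes. Mbd3, of the NuRD complex, fell by 0.19. None of these changes reached 2-fold.

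Among the further lists, 9 of 22 genes of DNA methylation and silencing fell and 2 rose. For interferon response and antigen presentation 9 of 19 fell, Gbp2, a guanylate-binding protein, by 0.66, and 2 rose, Usp18, an ISG15 protease, by 0.49. For p53 and stress response 7 of 16 fell, with Cdkn1a, the inhibitor p21, lower by 0.35, and 5 rose. For cell cycle and replication 12 of 36 fell, Mcm5, of the replicative helicase, by 0.50, and 6 rose. For primitive streak and mesoderm 6 of 14 fell, T, brachyury, by 0.23, and 1 rose, and for epiblast and neuroectoderm 2 of 14 fell and 4 rose. For X-inactivation and Y-linked genes 2 of 7 fell, Rlim, a ubiquitin ligase that promotes X-inactivation, by 0.24, and 1 rose. A second Rlim probe differed by -0.01 (adjusted p = 0.75). For reference genes 3 of 14 fell and 2 rose. The shares of these lists that fell, read against 37.7% of all genes, ranged on both sides of it. Of 47 ribosomal protein genes 11 rose, 7 fell and 29 did not pass. Of the 11, 4 were saturated in Cy3 on 1 or more EB5 arrays and 2 on all of them, and no HP4 spot was saturated, so that Rps23 and Rps12, with differences of 0.63 and 0.44, have only a bound in EB5. Both also changed sign with median centring. A further Rps12 probe, with its reference spot saturated on all arrays, differed by 0.06 (adjusted p = 0.58). Of 20 probes saturated on all EB5 arrays, 19 were higher in HP4 at the adjusted p.

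**Figure D3:**
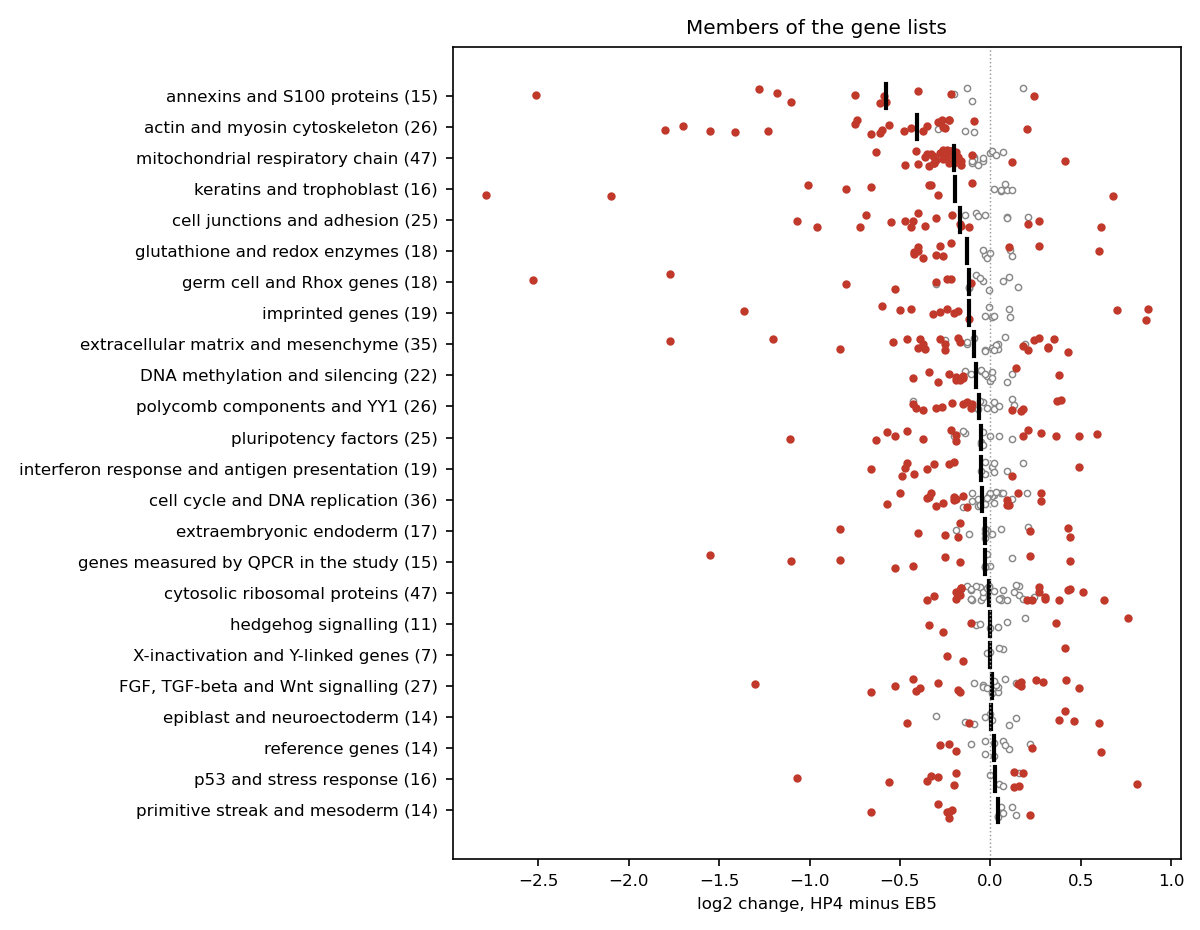
Log2 difference HP4 minus EB5 for the measured genes of every list, 1 point per gene at its brightest probe, filled where the adjusted p passed and open where it did not, with a black bar at the median and the number measured beside the name. The actin and myosin list, with 22 of 26 members lower, and the annexins and S100 proteins, with a median of -0.58, lie furthest to the left.

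Set against lines read in its own session, HP4 showed fewer of the differences from EB5. HP4 against RKPG9 had 49 probes lower (0.242% of 20278 tested) and 28 higher (0.138%) past both thresholds. The 58 probes lower than in EB5 were lower than in RKPG9 past both thresholds for 9, and at the adjusted p for 37, higher at the adjusted p for 11, and not past the test for 10. HP4 against HP3 had 5 probes lower (0.0247% of 20273 tested) and 0 higher past both thresholds. Against HP3 the 58 probes were lower past both thresholds for 1, lower at the adjusted p for 30, higher for 10, not past the test for 17 and untested for 1. These comparisons share the HP4 arrays. Rhox6, Anxa3, S100a6 and Anapc10, a subunit of the anaphase-promoting complex, were the named genes lower than in both EB5 and RKPG9 by more than 2-fold, S100a6 with a saturated reference spot on all arrays. Anapc10 was chosen after its values were seen, with falls of 1.00 and 1.08. Ly75, an endocytic receptor, and Ica1, an autoantigen of islet cells, were the largest named falls against RKPG9, by 1.94 and 1.54, and read -0.12 (adjusted p = 0.071) and -0.29 (adjusted p = 0.0014) against EB5. Upp1, uridine phosphorylase, was higher than in RKPG9 by 1.60 and differed by 0.10 from EB5 (adjusted p = 0.25). Trpc2, an ion channel, Rpl39l, a ribosomal protein paralogue, and Kif21a, a kinesin, were higher than in RKPG9 by 1.35, 1.32 and 1.28, and differed from EB5 by -0.12, 0.03 and 0.24, the last of which passed the test. The other probes of Trpc2 differed from RKPG9 by -0.32 (adjusted p = 0.00012) and 0.05 (adjusted p = 0.6). At the probes given first, HP4 lay nearer to EB5 than to RKPG9 for these genes.

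**Figure D4:**
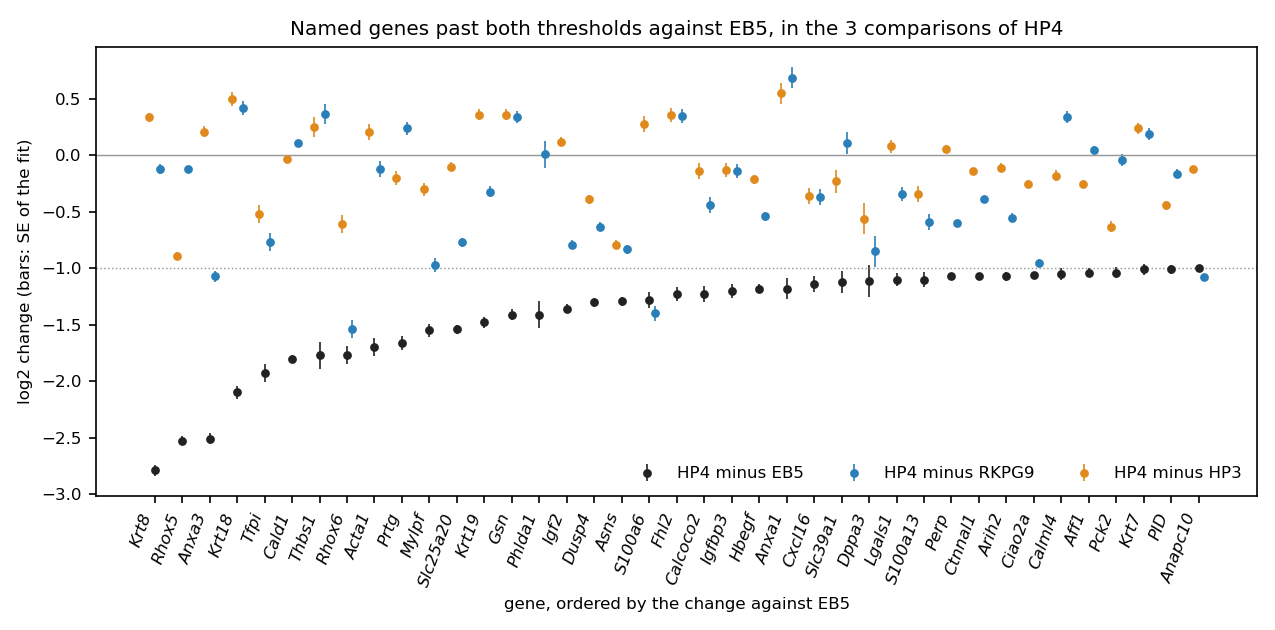
Log2 differences of HP4 from EB5, from RKPG9 and from HP3 side by side for the named genes with the largest falls, with bars for the standard errors. Rhox6, Anxa3, S100a6 and Mylpf lie well below 0 against both EB5 and RKPG9, and Krt18, Gsn, Fhl2 and Anxa1 lie above 0 against RKPG9.

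Chromosome 8, which carries Zfp42, was looked at because both of its copies carry a disrupted allele in HP4. Against EB5 the median difference of the genes of each chromosome lay between -0.09 and -0.047, with -0.09 on chromosome 8 (350 genes). Against HP3 it lay between -0.024 and 0.028. Against RKPG9 it was -0.266 on chromosome 8 and between -0.015 and 0.038 on the others. The deviation was on the side of RKPG9. The 3 RKPG9 arrays stood 0.20, 0.19 and 0.17 above the EB5 mean on chromosome 8 and 0.07, 0.07 and 0.08 below it elsewhere, whereas the HP4 arrays stood 0.08, 0.09 and 0.08 below it on chromosome 8. A value against RKPG9 for a gene of chromosome 8, such as Acta1, Dusp4, Anapc10 or Zfp42, includes this shift, and the values against EB5 do not.

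**Figure D5:**
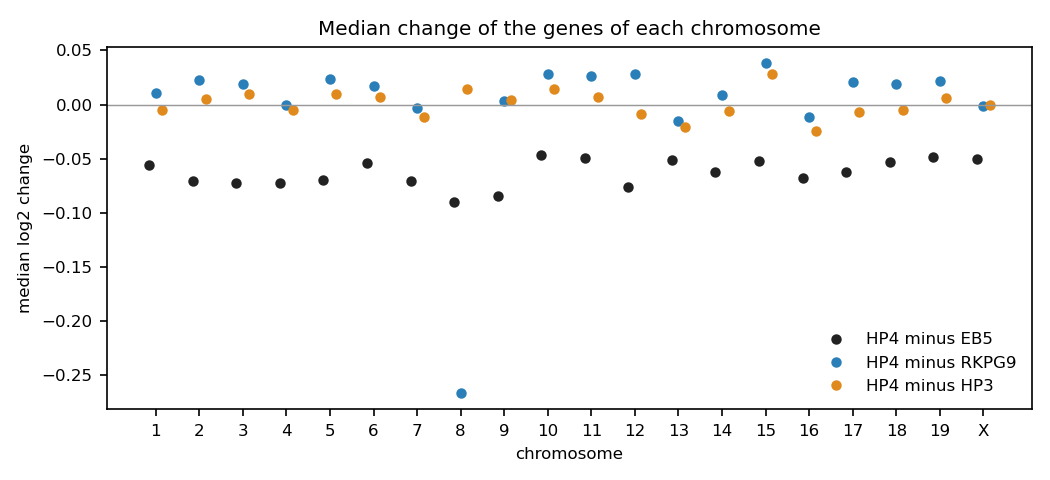
Median log2 difference of the genes of each chromosome, HP4 minus EB5, HP4 minus RKPG9 and HP4 minus HP3, 1 point per comparison and chromosome. Chromosome 8 stands at -0.266 against RKPG9, and all other medians lie between -0.09 and 0.038.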

How the data were processed

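The 4 ES cell lines were hybridised to 12 two-colour arrays, 3 per line. The authors scanned them and read them with Agilent Feature Extraction 7.5.1, and the deposited spot intensities (mean and local background, Cy3 and Cy5) were used. The deposited LogRatio column holds log10 ratios of Cy5 over Cy3. The authors' value table, on a log10 scale, was found to be minus this ratio plus a level per probe, within 0.01 for 93.82 to 95.9% of values, with column medians of 2.868 to 2.88 and a higher value meaning more RNA in the line.

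Intensities were corrected by normexp (offset 50) and normalized by loess within arrays. Control spots and 1824 outlier spots were left out. The log2 ratios computed from the deposited intensities were fitted with limma 3.58.1 (R 4.3.3, with data.table, version 1.17.8) over all 12 arrays, with 8 residual and 3.41 prior degrees of freedom. Probes with a Benjamini-Hochberg adjusted p below 0.05 and an over 2-fold difference were called. All adjusted p-values printed for genes come from this fit. The number of arrays limits the precision.

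Of 20280 gene probes, 8669 matched a symbol of the GRCm38.p6 RefSeq gene table (6716 genes), 551 kept the file's own symbol and 11060 had none. Lists used the brightest probe per gene. Where a probe was saturated or not well above background on every array of a line, its level there is a bound. Named genes are the 20 largest named falls past both thresholds, the 10 largest named rises at the adjusted p, up to 5 members per list, the genes of the study's quantitative PCR, Yy1 and a few pluripotency and chromatin genes, and the 5 highest and lowest against RKPG9 and HP3. The text gives some of them. The members, lists and rules were chosen with earlier results of these data known.

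As alternatives, the offset was set to 0, the background was not subtracted, loess was replaced by median centring or followed by Aquantile, and the processed signals, the authors' table or Cy3 alone were used. Outlier spots were kept, dim probes filtered, the fit limited to the 6 arrays compared, the replicate number made a block, and arrays left out singly. The fit was tested on simulated data. Tables and plots were made with Python 3.11.15, pandas 2.3.3, numpy 2.4.6 and matplotlib 3.10.9.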

Additional observations from a re-analysis of the deposited data

Results flagged for a closer look

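Of the named genes, 3 differed between the Rex1-/- lines past both thresholds, a test of whether the difference from EB5 has another size in HP4 than in HP3, since EB5 cancels. In all, 5 probes were lower in HP4 than in HP3 (0.0247% of 20273 tested) and 0 were higher. Sycp3, of meiotic chromosomes, read 1.67, 2.16 and 2.25 in HP4 and 3.01, 3.50 and 3.18 in HP3, a difference of -1.20 (adjusted p = 0.0002, limma). Its reference spot was well above background on 0 of the 3 arrays of either line, so the size of this difference is uncertain. Mal, a membrane traffic protein, differed by -1.02 (adjusted p = 0.01), with HP4 arrays at 1.27, 2.06 and 2.13. Only 2 HP3 spots were usable, at 2.78 and 2.91. Over all settings this difference ran from -1.33 to -0.75, so it was not past 2-fold in each. Tcstv1, a gene of the 2-cell-embryo-like state, read 1.00, 1.08 and 1.08 in HP4, 1.93, 2.20 and 2.06 in HP3, 2.03, 1.90 and 1.94 in EB5 and -0.13, -0.21 and -0.26 in RKPG9, a difference of -1.01 from HP3 (adjusted p = 4.8e-06). HP4 thus lay between EB5 and RKPG9 for Tcstv1, and its Sycp3 and Mal values against EB5 were -0.30 and -0.28, neither past the test.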

How the results depend on the processing

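Of 1846 values of 109 named results under the alternatives, 1743 kept their side of the threshold, 66 no longer passed and 20 newly passed. The other 17 changed sign with the main or the alternative value past the test. A sign change between values that both failed the test was counted among the 1743. Dppa5a, which ran from -0.39 to 0.66, Yy1 (-0.53 to 0.18), Suz12 (-0.55 to 0.14) and Gapdh (-0.9 to 0.08) had such changes. Of 27 named probes past both thresholds 25 passed the adjusted p in every setting. The exceptions were Anxa1 and Fhl2 without background subtraction. Of the 59 called probes 11 were past both thresholds in all 18 settings, among them Krt8, Rhox5, Anxa3, Tfpi, Rhox6 and Mylpf. The 59 called for HP4 against EB5 (58 lower, 1 higher) became 149 with Cy3 alone (133 lower, 16 higher), 1471 with the authors' table (816, 655), 399 with median centring (394, 5), 26 without background subtraction (19, 7), 654 with an offset of 0 (461, 193) and 1452 with processed signals (1009, 443). Of the 58 lower probes, 41, 53, 51, 14, 55 and 54 remained lower past both thresholds in these settings. Leaving out 1 array gave 58 to 63 in all, 55 to 59 lower and 2 to 6 higher. The 77 against RKPG9 became 634 with the authors' table, 280 with median centring, 43 without background subtraction, 313 with an offset of 0 and 674 with processed signals, and 78 to 87 with 1 array left out. The 5 against HP3 became 0 with Cy3 alone, 276 with the authors' table, 3 with the filter on dim probes, 26 with median centring, 122 with an offset of 0, 276 with processed signals, and 2 (without HP4 replicate 1) to 10 (without HP3 replicate 1) with 1 array left out. Against EB5, median centring turned Pou5f1 to -0.56, Myc to -0.23, Rps12 to -0.48, Ptch1 to -0.06, Gata4 to 0.59, Id2 to -0.13, Rps23 to -0.30, Afp to 0.14, Nanog to -0.36, Phc1 to -0.32 and Ttr to 0.40. Myc was -0.02 with the authors' table and with processed signals, Ptch1 -0.00, Nanog -0.33 and Dab2 0.07 without background subtraction, and Nanog -0.54 with Cy3 alone. The cause was not tested. Of 408 list medians under the alternatives 65 moved by 0.1 or more. A change of sign was counted only where both medians were at least 0.1 in size, and 0 were counted. Sign changes of smaller medians, which many lists had, were not counted. Replicate numbers were not taken to pair the samples, since not every same-number correlation was over 0.1: for replicates 1, 2 and 3 of HP4 they were 0.054, -0.002 and 0.119 with EB5, 0.148, 0.019 and 0.065 with RKPG9, and 0.202, 0.126 and 0.086 with HP3. With the replicate block the counts were 59 against EB5, 77 against RKPG9 and 4 against HP3. Dim spots limit what can be seen in HP4: 2 called probes were above background on no HP4 array, and 7 had fewer than 3 usable EB5 spots.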
